A study of Homo sapiens with 4 samples.

Results

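The genes described here are the nuclear genes for proteins of the mitochondrial ribosome, measured by the accessibility of their promoters. Members were selected by a rule on the symbol alone, as protein-coding genes whose symbol starts with MRPL or MRPS followed by a digit and holds no hyphen, and the rule uses no measured value. The rule found 77 members, 49 with MRPL and 28 with MRPS symbols, among 28775 promoters. By structure 2 of them, MRPS18A and MRPS30, sit in the large subunit despite their names, so the large subunit had 51 members and the small subunit 26. They lie on 21 chromosomes, with at most 8 on any of them, and all 77 passed the filter on low counts.

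Chromatin accessibility was measured by ATAC-seq, in which the Tn5 transposase cuts and tags open DNA, in HEK293T, an established line of human embryonic kidney origin that carries wild-type MORC2 in both groups. MORC2 is an ATPase that compacts DNA and acts in gene silencing. The control group (2 libraries) received lipofectamine, and the MORC2 overexpression group (2 libraries) was transfected with the plasmid pBacMam-MORC2-meGFP, which carries MORC2 joined to a green fluorescent protein, using Lipofectamine 2000. No sort for fluorescent cells was described, and whether the control received an empty plasmid is not stated in the labels. The labels do not say that replicates came from separate cultures. The p-values here therefore measure the spread between these libraries, pooled over promoters, which may be technical.

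Mitochondria keep a small genome of their own that encodes core subunits of the respiratory chain, and a dedicated ribosome translates it. Every protein of that ribosome is encoded in the nucleus, made in the cytosol and imported, so its production depends on many unlinked nuclear promoters. These genes are used in nearly all cell types, and mutations in a number of them cause mitochondrial disease with defects in oxidative phosphorylation. Factors known to act at promoters of nuclear genes for mitochondrial proteins include NRF1, the ETS family factor GABPA and YY1.

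Library depth differed between the groups. Total promoter counts ran from 3734519 to 10255182, the share of counts on the 37 promoters of the mitochondrial genome was 53.8% ± 2.60 (SD, n = 2) in control and 74.2% ± 0.640 in overexpression, and nuclear promoters held 979895 to 4928862 counts. The median member therefore had 228 counts in control replicate 1 and 178 in control replicate 2, but 90 and 50 counts in the 2 overexpression libraries. Levels are given below as TMM-scaled CPM, that is counts relative to a library total scaled by the trimmed mean of M-values, and 1 count was worth 0.0712 to 0.343 CPM. Of the markers for HEK293T, VIM stood at 51.4 and NEFL at 17.0 CPM in control, whereas LIN28B, KRT18, KRT8 and PAX2 lay between 3.59 and 8.19 CPM. The T cell gene CD3E, the leukocyte gene PTPRC and the liver gene ALB were each below 1 CPM in control, and INS and MYH6, genes of other tissues, stood at 2.96 and 2.83 CPM. INS and MYH6 passed the filter and had log2 fold changes of 0.33 and 0.59 in overexpression, neither past the test (adjusted p = 0.651 and 0.327), and their part in the results was not tested.

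The promoters of the members shared short sequence elements that the rule did not use. RefSeq promoter sequences on GRCh38.p14, from 250 bases before to 50 after the start, were found for 69 of the 77 members. MRPL2, MRPL10, MRPL13, MRPL15, MRPL21, MRPL23, MRPL35 and MRPS28 had none in the table. Each motif was searched as fixed letters on both strands. The ETS letters CCGGAAG were present in 29 of 69 member promoters (42.0%), against 10.6% of all 27305 promoters in the table and 14.4% of the 15463 promoters of protein-coding genes. The YY1 letters AANATGGCG were present in 18 members (26.1%), against 3.34% of all promoters and 4.88% of those of protein-coding genes. The NRF1 letters GCGCANGCG were found in 13 members (18.8%, against 8.05% and 11.2%). At least one of these 3 motifs was present in 48 members (69.6%), against 19.1% of all and 26.3% of protein-coding promoters. A match of letters is a description of the sequence and does not show that a factor was bound.

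Other elements were searched in the same way. The SP1 letters GGGCGG were in 59.4% of members and 59.1% of protein-coding promoters, the CCAAT box in 29.0% and 36.6%, and the E-box CACGTG in 10.1% and 8.81%. The ZNF143 letters ACTACAA were in 8.70% of members and 3.16% of protein-coding promoters. The TATA letters TATAAA were found in 2 members (2.90%, against 9.69%) and the cyclic AMP response letters TGACGTCA in none of the 69 (2.61% of protein-coding promoters). Sites of different motifs shared a base in 1 member only. The median GC content was 60.3% in member promoters, 58.3% in all and 62.7% in those of protein-coding genes.

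**Figure D1:**
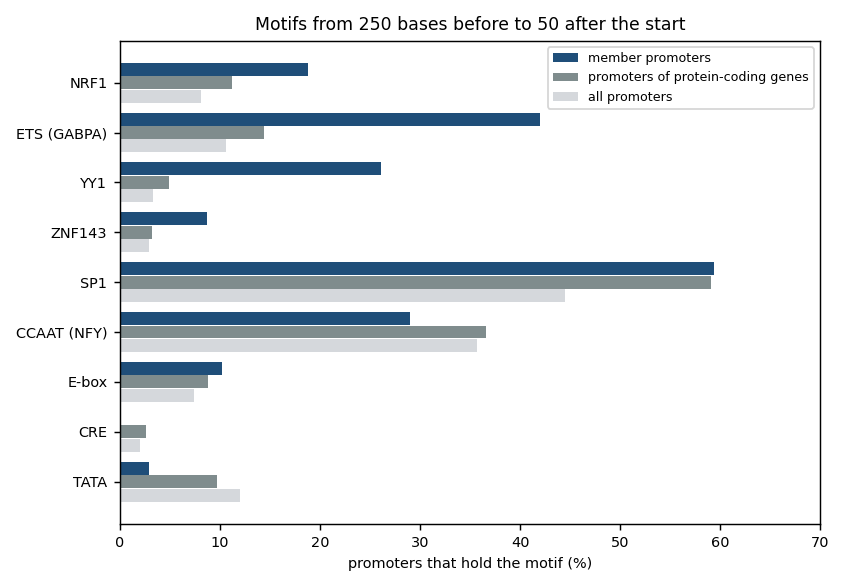
The horizontal axis gives the percentage of promoter windows that hold each motif on either strand, for the 69 member promoters (dark blue), promoters of protein-coding genes (grey) and all promoters (light grey). The longest gaps between member and other promoters are at the ETS motif (42.0% against 14.4% in protein-coding genes) and the YY1 motif (26.1% against 4.88%), while the SP1 bars of members and protein-coding genes are nearly equal.

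The YY1 and ETS letters held different places relative to the start. Of 20 YY1 sites, 16 lay after the start, the farthest with its first base 35 bases downstream, and the median first base was 11 bases downstream. Of 39 ETS sites, 30 lay before the start, with a median first base 22 bases upstream. The YY1 letters read on the strand of the gene at 17 sites and on the other strand at 2, and 1 site lay too close to the end of the window to be read with its flanks. The YY1 letters contain ATG, which is also the start codon of coding sequences. Where the coding sequences begin was not looked up, so overlap of these sites with start codons was not tested. Their place and strand therefore do not show a role for YY1. ETS sites read on the strand of the gene at 18 places and on the other strand at 21. The YY1 sites of some of the members that recur in the values below are shown as examples. They are given on the strand of the gene, 5′ to 3′, with the YY1 letters in capitals (RefSeq, GRCh38.p14), so that the shared core and the unlike flanks can be compared.
MRPS24, chr7:43869482-43869506, minus strand: cttggcccAAGATGGCGgcctccgt
MRPL38, chr17:75904862-75904886, minus strand: ccggagggAAGATGGCGgcgccctg
MRPL50, chr9:101398579-101398603, minus strand: tctcatcgAAGATGGCGgcgcgatc
MRPS18A, chr6:43687766-43687790, minus strand: ggtttttgAAGATGGCGgccctcaa
MRPS30, chr5:44808952-44808976, plus strand: cgcgggcaAAGATGGCGgcggccag
MRPL1, chr4:77862838-77862862, plus strand: gagtgcccAACATGGCGgcggccgt
MRPL52, first site, chr14:22829781-22829805, plus strand: gatgacccAAGATGGCGgagccgtg
MRPL52, second site, chr14:22829815-22829839, plus strand: ccagattcAAGATGGCGacttcctg

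Both MRPL52 sites lie upstream of the start, unlike the other sites of that set. Of the 39 ETS sites, 6 are shown in the same way as examples in both orientations, with the ETS letters or their reverse complement in capitals.
MRPL40, chr22:19432526-19432548, plus strand: gcgcacgcCCGGAAGcggcgagg
MRPL3, chr3:131502989-131503011, minus strand: aaaacgcaCCGGAAGtgggtccg
MRPL53, chr2:74472738-74472760, minus strand: gccggcggCCGGAAGtctatccc
MRPL16, chr11:59810770-59810792, minus strand: gaacacaaCTTCCGGccccactg
MRPS18C, chr4:83455828-83455850, plus strand: ctcgcggaCCGGAAGcacgcata
MRPS12, chr19:38930931-38930953, plus strand: gatagcgcCCGGAAGaggctaga

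In control cells the members were open at a middle to high level. Their median control level was 16.5 CPM, against 12.1 CPM for all promoters tested, and 62 of 77 lay above that latter value. The median of the small subunit members was 18.1 CPM and that of the large subunit 15.9 CPM. The quartiles of the members differed by a factor of 1.70, so most sat close together, although the whole range spanned a factor of 13.4. If every promoter was counted in the same 2 kb window, as the methods describe and as is assumed for this table, levels of different genes can be compared on the CPM scale.

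**Figure D2:**
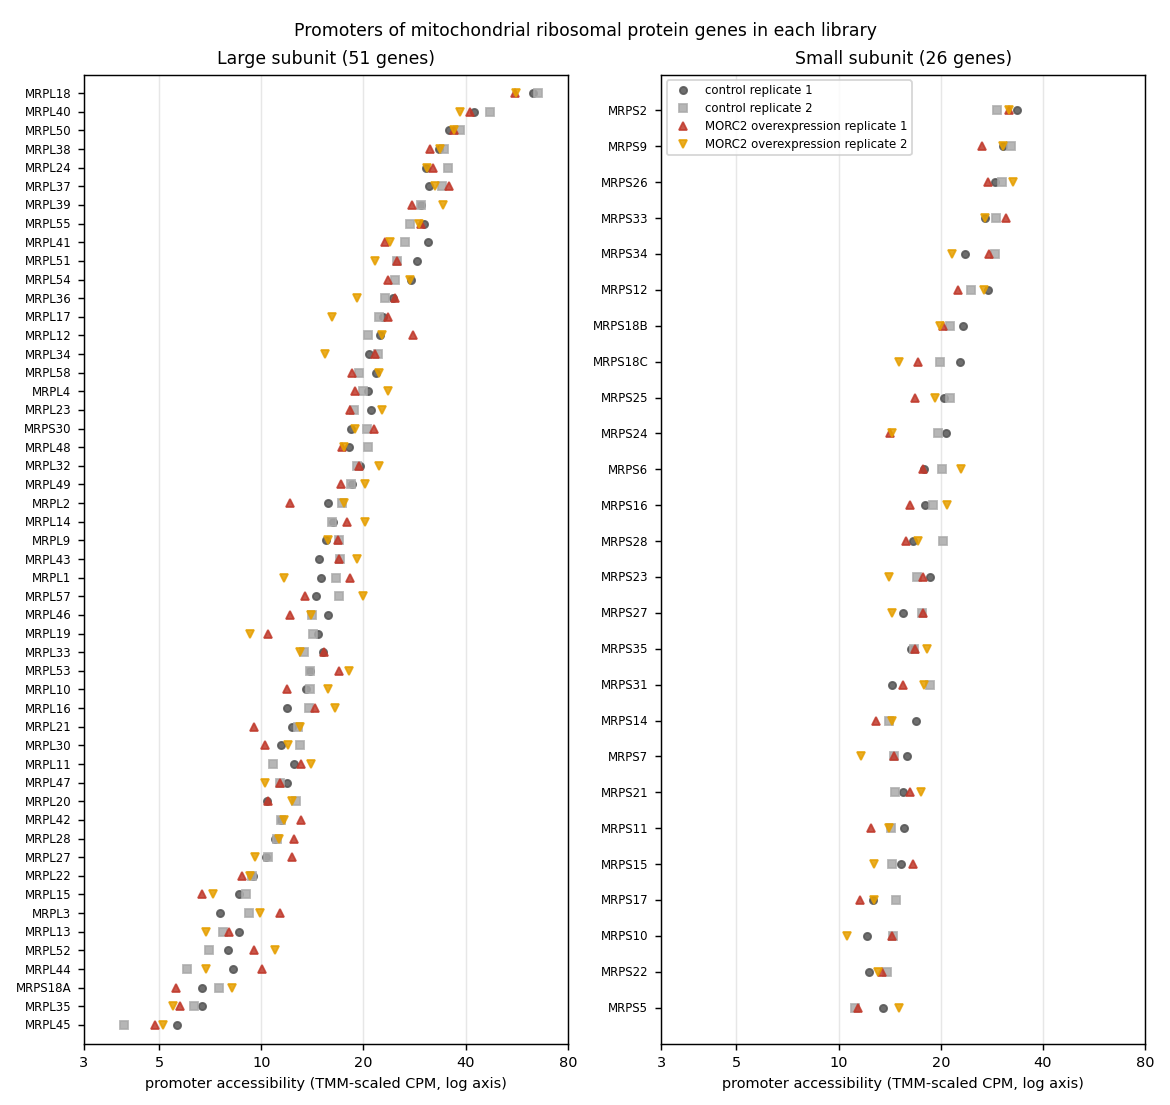
Each row is a member promoter, ordered by its mean control level within the large (left, 51 genes) and small subunit (right, 26 genes), and the horizontal axis gives TMM-scaled CPM on a log axis for each of the 4 libraries. MRPL18 stands alone at the top at about 60 CPM, MRPL45 lies lowest at about 5 CPM, and in most rows the markers of the 2 groups are mixed.

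MRPL18, a protein of the central protuberance of the large subunit, had the most accessible promoter of the family. Its level was 63.0 and 65.2 CPM in the control libraries and 55.9 and 56.2 CPM in the overexpression libraries. MRPL40, also of the central protuberance and encoded in the region lost in the 22q11 deletion syndrome, followed with 42.4 and 47.3 CPM in control and 41.2 and 38.4 CPM in overexpression. Both were lower in each overexpression library than in either control library, by −0.19 ± 0.101 (SE) and −0.15 ± 0.111 on the log2 scale, and neither passed the test (adjusted p = 0.306 and 0.487). MRPL50, MRPL38 and MRPL24 had control means of 37.1, 34.0 and 33.0 CPM. In the order of control levels the steps from MRPL18 to MRPL40, from MRPL40 to MRPL50 and from MRPL50 to MRPL38 exceeded the pooled SD of the replicates, whereas MRPL38 and MRPL24 differed by less than that spread.

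At the low end stood MRPL45, which links the ribosome to the inner membrane at the exit of the peptide tunnel. Counts were 79 and 41 for control, then 26 and 15 for overexpression, which is 5.63, 3.94, 4.85 and 5.14 CPM, and the groups overlapped. MRPL45 has a copy, the transcribed pseudogene MRPL45P2, which took 149, 107, 46 and 17 counts in the same libraries. How alike their promoters are, and how many reads of MRPL45 the filter on mapping quality removed, was not examined, so the MRPL45 level is uncertain. MRPL35, MRPS18A, MRPL44 and MRPL52 came next with control means of 6.52, 7.10, 7.16 and 7.50 CPM. Across the whole order, 13 of the 76 steps between neighbouring members were wider than the pooled SD, so most neighbours in the order could not be separated by their replicates.

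The promoter of MRPL18 is printed as the most open of the family and that of MRPL45 as the least open. Capitals mark GGGCGG and CCAAT in the MRPL18 sequence and the E-box CACGTG in the MRPL45 sequence (the bases just before the start, RefSeq, GRCh38.p14).
MRPL18, chr6:159789662-159789811, plus strand: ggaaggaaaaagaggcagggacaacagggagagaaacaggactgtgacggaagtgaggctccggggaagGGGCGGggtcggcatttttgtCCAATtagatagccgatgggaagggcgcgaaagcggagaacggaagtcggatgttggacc
MRPL45, chr17:38297018-38297167, plus strand: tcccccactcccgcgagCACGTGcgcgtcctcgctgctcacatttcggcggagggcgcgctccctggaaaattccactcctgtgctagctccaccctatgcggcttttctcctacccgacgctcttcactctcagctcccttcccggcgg

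The question the study put to these libraries was whether raising MORC2 changes accessibility. As a group the members kept their share of nuclear promoter counts. They held 0.414% and 0.416% of them in the control libraries and 0.413% and 0.425% with overexpression, with means of 0.415% ± 0.00118 (SD, n = 2) and 0.419% ± 0.00815 and a ratio of 1.01. The overexpression values lay on both sides of the control values. The large subunit took 0.271% in control and 0.277% in overexpression, and the small subunit 0.144% and 0.142%. When the counts of the mitochondrial genome were left in the denominator, the ratio was 0.563, a value that follows the higher mitochondrial share of the overexpression libraries. In bulk libraries a lower count can mean fewer cells with an open promoter or less cutting per cell, and these cannot be told apart.

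Single members moved little. Of the 77, 1 passed the test at an adjusted p under 0.05 (1.30%), MRPS24, which was lower in overexpression. Over all 23407 promoters tested, 2.47% passed, 1.16% higher and 1.30% lower (edgeR's quasi-likelihood test, Benjamini-Hochberg adjustment over all promoters). At an unadjusted p under 0.05 there were 7 members (9.09%), 3 higher and 4 lower, against 17.2% of all promoters, 8.66% higher and 8.57% lower. The share of members called was thus near or below that of all promoters. The 2 groups did not overlap for 27 members (35.1%), 16 lower and 11 higher in overexpression, against 49.7% of all promoters, 24.9% lower and 24.8% higher. The log2 fold change was below 0 in 44 members and above 0 in 33.

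The median log2 fold change of the members was −0.03, against 0.01 for all promoters tested. Members lay above all promoters instead with loess offsets on abundance (0.03 against −0.01) and with a mean count of at least 50 (0.04 against 0.0014). Quartiles were −0.15 and 0.04 for members and −0.16 and 0.26 for all. The large subunit had a median of −0.01 and the small subunit −0.03. Promoters of low level shifted upward in these libraries and those of high level downward, so the members were also set beside promoters of like level. All promoters tested were split into 4 bins of equal size by mean level, and the medians over all promoters were 0.39, 0.13, −0.05 and −0.13 from the lowest to the highest bin. No member fell in the lowest bin, 15 in the next, 43 in the third and 19 in the highest, with member medians of −0.04, −0.01 and −0.05.

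**Figure D3:**
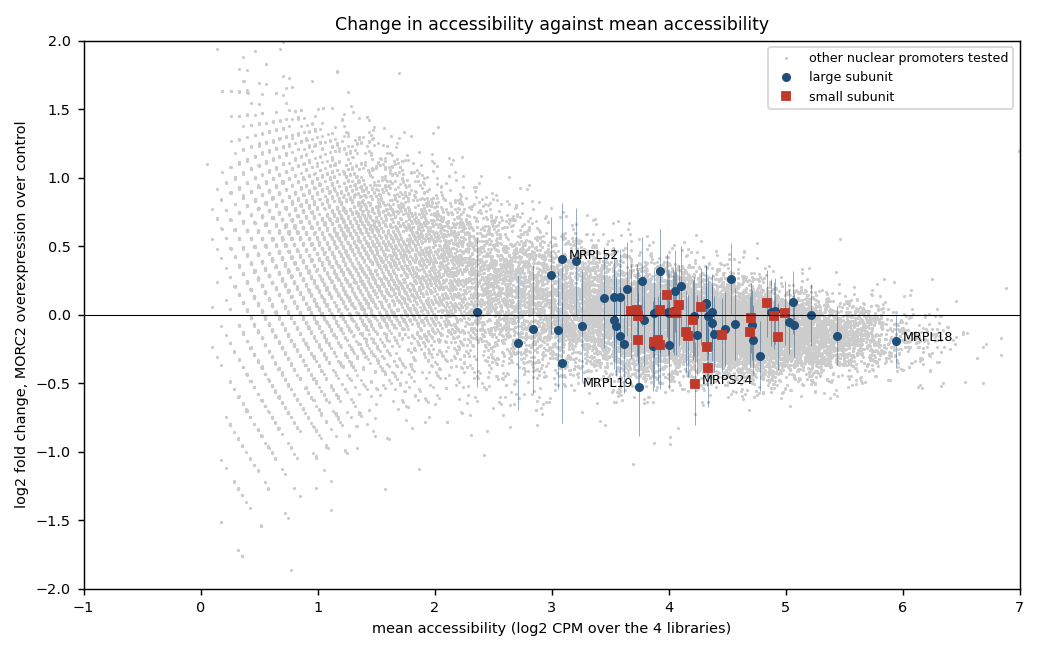
The horizontal axis gives the mean level over the 4 libraries (log2 CPM) and the vertical axis the log2 fold change, overexpression over control, with 95% intervals for large (blue circles) and small subunit members (red squares) and other nuclear promoters in grey; the axes leave out a few promoters beyond their ends. The members lie between −0.53 (MRPL19) and 0.41 (MRPL52), inside the grey cloud at their level.

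By the edgeR fit, the size of change these data allow was small. Standard errors of the members ran from 0.101 to 0.278 on the log2 scale, with a median of 0.153. The 95% interval of the fold change lay within a factor of 2 of no change for all 77 members, and within a factor of 1.5 for 68. Over all 23407 promoters tested, which include those of the lowest level, these numbers were 17423 and 12214. For the 85 promoters of cytosolic ribosomal proteins tested they were 84 and 69. In this fit the variance was pooled fully over promoters, so a member's own spread between replicates did not enter its interval. With DESeq2 the standard errors were wider, at 0.250 against 0.181 for MRPL19 and 0.210 against 0.154 for MRPS24, so these counts depend on the fit. The fitted fold was within 10% of 1 for 47 members. Between the control replicates the log2 ratios of the 76 members with a mean count of at least 50 had an SD of 0.160, between the overexpression replicates 0.268, and between libraries of different groups 0.217 to 0.253. The spread between groups was no wider than that between the overexpression replicates, and wider than that between the control replicates. The overexpression libraries also held fewer counts, which widens such ratios, so this comparison cannot decide whether the groups differed.

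MRPS24, the counterpart of bacterial S3 at the site where messenger RNA enters the small subunit, was the member called. In control replicates it drew 291 and 204 counts, and with overexpression 76 and 42, which is 20.7 and 19.6 CPM against 14.2 and 14.4 CPM. Both overexpression libraries were lower than both control libraries, and replicates of each group were close. Its log2 fold change, −0.51 ± 0.154 (SE), passed the edgeR test at an adjusted p of 0.0466. The adjusted p lay just under the threshold, and the call was lost when any of the 4 libraries was left out (adjusted p from 0.104 to 0.304) and with DESeq2 (0.643) or limma-voom (0.0589), and also with 3 other scalings or filters, while the log2 fold change stayed between −0.54 and −0.43 in all of these. MRPS24 shares its upstream region with a gene that starts 129 bases away on the other strand, LOC124901620, which was not in the count table. The bases between the starts are printed because this was the only member that passed, with capitals at the reverse complement of GGGCGG.
MRPS24, chr7:43869518-43869645, minus strand: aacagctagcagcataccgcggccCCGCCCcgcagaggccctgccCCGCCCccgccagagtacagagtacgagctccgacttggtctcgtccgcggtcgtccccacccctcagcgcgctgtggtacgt

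The 4 members next in p among those with lower values did not pass. MRPL19, a large subunit protein with a bacterial counterpart at the interface of the subunits, gave 14.7 and 14.2 CPM in control and 10.4 and 9.25 CPM in overexpression, a log2 fold change of −0.53 ± 0.181 (adjusted p = 0.0822). This was the lowest fold of the family, and the groups did not overlap. MRPS18C, one of the human counterparts of bacterial S18, gave 22.7 and 19.9 CPM in control and 17.1 and 15.1 CPM in overexpression (log2 fold change −0.39 ± 0.147, adjusted p = 0.128). MRPL41, a protein that bacterial ribosomes lack, gave 30.9 and 26.4 CPM against 23.1 and 24.0 CPM (−0.30 ± 0.131, adjusted p = 0.196). MRPL18, described above as the most open, was the last of these. In all of these the higher overexpression value stayed below the lower control value.

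No member with a positive fold change passed, with 3 of them at an unadjusted p under 0.05. MRPL53, a protein of the stalk base that bacterial ribosomes lack, gave 14.0 and 13.9 CPM in control and 17.0 and 18.2 CPM in overexpression (log2 fold change 0.32 ± 0.156, adjusted p = 0.266). MRPL12, the counterpart of bacterial L7/L12 that contacts translation factors, gave 22.4 and 20.7 CPM against 28.0 and 22.6 CPM (0.26 ± 0.132, adjusted p = 0.280). The control libraries of MRPL12 reached 22.4 CPM and the lower overexpression library 22.6 CPM, so the groups barely separated. MRPL52, a large subunit protein without a bacterial counterpart, gave 7.98 and 7.02 CPM against 9.51 and 10.97 CPM (0.41 ± 0.208, adjusted p = 0.290). MRPL3 and MRPL16, both near the centre that forms peptide bonds, had log2 fold changes of 0.39 ± 0.200 and 0.24 ± 0.166 (adjusted p = 0.293 and 0.457). The highest fold change, that of MRPL52, came from 112 and 73 control counts and 51 and 32 overexpression counts, so its error was among the wider ones.

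Ordered by role, no group of large subunit proteins held a member that passed. In the region of the peptidyl transferase centre (MRPL2, MRPL3 and MRPL16), where peptide bonds form, the control levels ran from 8.39 to 16.5 CPM. The log2 fold changes there ran from −0.23 to 0.39, with none at an unadjusted p under 0.05. MRPL4, which was listed with these members at the outset, had 20.3 CPM in control and a log2 fold change of 0.02. In the stalk that recruits translation factors (MRPL10, MRPL11, MRPL12, MRPL53 and MRPL54), 2 of 5 had an unadjusted p under 0.05, the MRPL12 and MRPL53 described above, and 3 had overexpression values above both control values (17.2% and 24.8% of all promoters). Around the exit tunnel for the new peptide (MRPL22, MRPL23, MRPL24, MRPL44 and MRPL45), log2 fold changes ran from −0.08 to 0.29 and 0 of 5 had an unadjusted p under 0.05. MRPL44, which keeps the fold of an RNase III enzyme, varied between replicates, with 8.26 and 6.06 CPM in control and 10.1 and 6.85 CPM in overexpression. In the central protuberance (MRPL18, MRPL27, MRPL38, MRPL40, MRPL46 and MRPL48), the structure at the top of the subunit, 5 of 6 log2 fold changes were below 0, 4 had both overexpression values below both control values (48.6% and 24.9% of all promoters), and 0 of 6 had an unadjusted p under 0.05. MRPL18, MRPL38 and MRPL40 lay in the highest bin of level, where the median over all promoters was itself −0.13. The part of level in these lower values was not tested. MRPL1, of the L1 stalk near the exit site for transfer RNA, had 15.0 and 16.6 CPM in control and 18.3 and 11.7 CPM in overexpression, with control values between the overexpression values. MRPL58, a peptidyl-tRNA hydrolase built into the large subunit, had 21.7 and 19.4 CPM in control and 18.5 and 22.3 CPM in overexpression, and here too the groups overlapped.

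The small subunit members had control levels from 12.3 to 31.4 CPM and log2 fold changes from −0.51 to 0.14. Of the named ones, MRPS2, a protein on the solvent side, was the most open at 33.6 and 29.2 CPM in control and 31.9 and 31.9 CPM in overexpression. MRPS12, which helps to read the codon in the decoding centre, gave 27.6 and 24.6 CPM in control and 22.6 and 26.7 CPM in overexpression. MRPS5, MRPS15, MRPS22 and the pentatricopeptide repeat protein MRPS27 had log2 fold changes between 0.01 and 0.04, with overlapping groups. MRPS18B, another counterpart of bacterial S18, gave 23.2 and 21.2 CPM against 20.3 and 19.9 CPM (log2 fold change −0.15 ± 0.139, adjusted p = 0.616). The 2 members placed in the large subunit by structure did not stand out, since MRPS18A gave 6.70 and 7.50 CPM against 5.59 and 8.22 CPM and MRPS30 18.4 and 20.5 CPM against 21.4 and 18.8 CPM.

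Among 15 members known as genes for mitochondrial disease, 0 passed the edgeR test, against 2.47% of all promoters. An unadjusted p under 0.05 was seen for 1, MRPL12, against 17.2% of all promoters. The log2 fold changes of the 15 ran from −0.24 (MRPS25) to 0.39 (MRPL3), with a median of −0.03. MRPS25 gave 20.4 and 21.2 CPM in control and 16.8 and 19.2 CPM in overexpression. MRPS34 gave 23.6 and 28.8 CPM in control and 27.8 and 21.6 CPM in overexpression, so its replicates differed by more than its group means. MRPS16, MRPS14 and MRPS7 gave log2 fold changes of −0.04, −0.22 and −0.18.

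Many members share their promoter with another gene. In the RefSeq promoter table, 22 members had a gene starting within 1000 bases on the other strand and pointing away, and 19 of those neighbours were in the count table. Counts of such pairs were almost the same, with a largest difference in any library between 0.490% and 7.50%, since a fragment in the shared region can enter both windows. MRPL18 and TCP1, a subunit of the chaperonin that folds actin and tubulin, start 210 bases apart and took 884 and 884, 678 and 677, 300 and 299, and 164 and 166 counts in the 4 libraries. MRPS18C and the helicase gene HELQ, 175 bases apart, had the same 319 and 207 counts in the control libraries, and 92 against 94 and 44 against 44 with overexpression. MRPS11 and MRPL46 are both members, 320 bases apart, with 219 and 220, 148 and 147, 67 and 65, and 41 and 41 counts, so their values are nearly a single measurement. MRPS12 has as its neighbour SARS2, the mitochondrial seryl-tRNA synthetase, at 181 bases. MRPS6 and SLC5A3 share a start and had identical counts of 250, 210, 95 and 67.

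**Figure D4:**
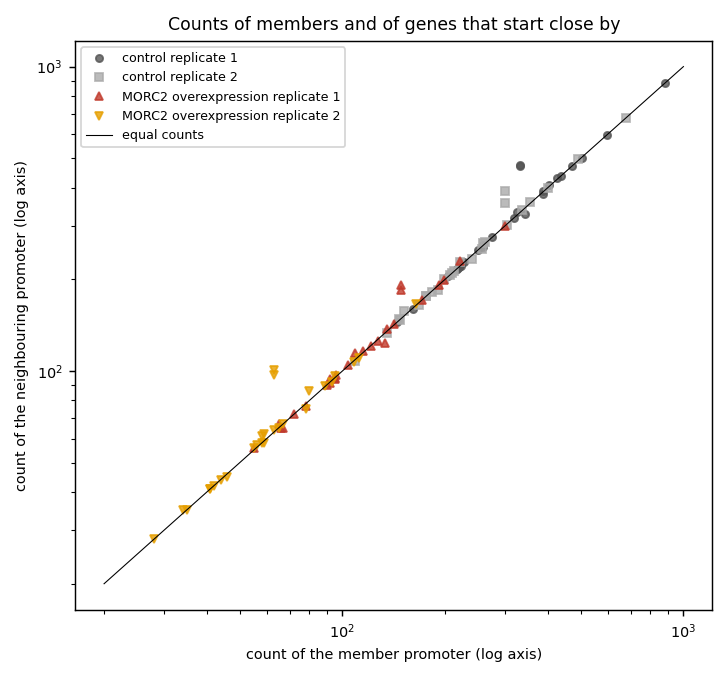
Each point is a member (horizontal axis) and a counted gene that starts less than 2 kb from it on either side (vertical axis). Points are raw counts in 1 library on log axes, with the line of equal counts. Of the 27 counted neighbours, 21 had counts within 5% of those of the member in every library, and the points far above the line belong to MRPS34 and its neighbours NME3 and EME2.

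The values of such a pair cannot be assigned to either gene. Of the members with a divergent neighbour, 1 of 22 was called, which was MRPS24. Of the other 55, 0 were called and 5 had an unadjusted p under 0.05. These 55 include the 8 without a promoter entry, whose neighbours were not looked up. Over all promoters, 2.47% were called and 17.2% had an unadjusted p under 0.05. The medians of the log2 fold change were −0.04 for those 22 and −0.03 for the other 55. The share of nuclear counts held by these 55 was 1.02 times as high in overexpression as in control. Promoter motifs did not separate the members by change either, with median log2 fold changes of −0.04 with and 0.01 without the YY1 letters, and −0.03 with and 0.01 without the ETS letters. In level, members with the SP1 letters had a median of 19.0 CPM in control and those without 15.0 CPM.

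Other genes of mitochondrial translation were described by the same counts, and the lists were not tested against the members. Of 6 genes listed at the outset with the mitochondrial ribosome under other names, 0 were called and 1 had an unadjusted p under 0.05 (17.2% of all promoters). It was OXA1L, which encodes a membrane insertase rather than a ribosomal protein, with 9.40 and 9.23 CPM in control and 6.52 and 7.54 CPM in overexpression (log2 fold change −0.44, adjusted p = 0.288). Of 19 assembly factors 1 was called (5.26%, against 2.47% of all promoters). This was RBFA, which acts in the maturation of the small subunit, with 25.7 and 23.1 CPM in control and 17.0 and 17.5 CPM in overexpression (log2 fold change −0.52 ± 0.143, adjusted p = 0.0264). Of the other assembly factors, 3 had an unadjusted p under 0.05 and all 3 were higher, which is 15.8% of the 19 against 8.66% of all promoters. None of 14 translation factors and related proteins was called or had an unadjusted p under 0.05. The lowest p values there were those of LRPPRC, which stabilises mitochondrial messenger RNA, and the elongation factor TUFM (log2 fold changes −0.32 and −0.22, adjusted p = 0.308 and 0.358).

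Of 20 genes for mitochondrial aminoacyl-tRNA synthetases and the glutaminyl-tRNA amidotransferase, 0 were called and 5 had an unadjusted p under 0.05, all lower, against 2.47% of all promoters called and 8.57% lower at an unadjusted p under 0.05. In 17 of the 20 the log2 fold change was below 0 (48.6% of all promoters), with a median of −0.12. Their promoters were more open than those of the members, with a median of 23.6 CPM in control. In the highest bin of level, 10 of the 20 had a median of −0.21, against −0.13 for all promoters there. In the third bin, 9 had a median of −0.04 against −0.05, and the 1 in the second bin had 0.02 against 0.13. The part of level in the lower values was not tested. The glutamyl enzyme EARS2 gave 33.9 and 31.6 CPM in control and 24.6 and 27.1 CPM in overexpression (log2 fold change −0.36 ± 0.126, adjusted p = 0.0884).

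The proteins of the cytosolic ribosome, which makes all other cellular proteins, are the closest comparison. Of 88 such promoters 85 were tested, and 2 (2.35%) were called, RPS14 and RPL26, both lower with log2 fold changes of −0.72 ± 0.158 and −0.55 ± 0.140 (adjusted p = 0.0016 and 0.00991). Their median control level was 19.3 CPM and their median log2 fold change −0.10, against 16.5 CPM and −0.03 for the mitochondrial set. They held 0.473% ± 0.0137 of nuclear counts in control and 0.465% ± 0.0138 in overexpression (SD, n = 2), which differed by less than the spread between replicates. The difference between both ribosome sets was not tested.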

How the data were processed

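Paired reads of 4 ATAC-seq libraries were, per the study's methods, trimmed, aligned with bowtie2 to the telomere-to-telomere assembly CHM13, kept when properly paired with a mapping quality of at least 30, and cleared of duplicates with Picard. The authors deposited whole-number counts per promoter and Entrez identifier, without normalisation; a promoter was described as a 2 kb window around the start, and that the table covers this whole window is assumed. The deposited peak lists were not used here. No Tn5 offset was described, which would move few fragments across a window's edge.

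Identifiers were matched to a RefSeq table of GRCh38.p14 (28763 of 28775 named). Promoter counts were filtered with filterByExpr, scaled by TMM and compared by edgeR 4.0.16 quasi-likelihood F-tests (legacy form, R 4.3.3, two-sided) without covariates; p-values were adjusted after Benjamini-Hochberg over 23407 promoters. The standard error is the fold change divided by the root of F. The common biological coefficient of variation was 4.28%. The test was tested on simulated counts. Motifs, neighbours and figures used Python 3.11.15, pandas 2.3.3 and matplotlib 3.10.9. DESeq2 1.42.0, limma 3.58.1 (voom), other scalings and filters, a replicate block and leaving out each library were alternatives. Sequences before the start were read from the RefSeq table and used only as printed or searched.

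Named members are those called, the 5 with the smallest p in each direction, the 5 highest and 5 lowest in control, and members with a stated role or disease. The family and the lists were chosen for study with earlier results of these data known, although the rule on symbols uses no value. Where values of single members outside this rule are given, they were chosen after their values were seen. Replicate numbers shared between the groups did not pair the libraries (correlation of deviations 0.05 over 14976 promoters). Values of some genes of the comparison lists are not reported here.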

Additional observations from a re-analysis of the deposited data

How the results depend on the processing

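Across alternatives the number of members called ranged from 0 to 2, apart from scaling by library totals. The counts of all promoters called, of members called and the member median log2 fold change were 577, 1 and −0.026 as reported. They became 1166 and 2 at an adjusted p under 0.1. With library totals they became 16319, 75 and −0.83, where the median of all promoters was itself −0.78 and the members lay −0.04 from it; with that shift the 5 named members with a positive fold change, MRPL12, MRPL16, MRPL53, MRPL3 and MRPL52, stood at −0.54, −0.55, −0.47, −0.41 and −0.38. With upper quartile scaling, 0 members were called (5 higher and 3 lower at an unadjusted p under 0.05) and the median was 0.055, against 0.09 for all. Loess offsets on abundance gave 54 promoters, 0 members (2 higher and 4 lower unadjusted) and a median of 0.033 (−0.0068 for all). A mean count of at least 50 gave 218, 0 (4 and 3 unadjusted) and 0.041 (0.0014 for all). The DESeq2 test gave 52 promoters and 0 members (0 and 2 unadjusted), and limma-voom 0 members (4 and 5 unadjusted). The share of calls that fell was 52.9% as reported, 99.7% with library totals, 22.1% with upper quartile, 40.7% with loess and 21.2% with DESeq2.

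Leaving out each library in turn, with the lone library taken to vary like the others, gave 101 to 206 promoters, 0 members each time (5, 5, 5 and 7 at an unadjusted p under 0.05) and medians from −0.083 to −0.025, the lowest without overexpression replicate 2. With a replicate block 488 promoters and 1 member were called, with a median of −0.01; the shared numbers were not treated as pairs. MRPS24 lost its call in 9 of 15 alternatives, with adjusted p from 1.11e-13 to 0.643 over all of them and a negative log2 fold change in each. With all promoter counts as the denominator the ratio of member shares was 0.563. The cause of these changes was not tested. Depth limits the low members most: MRPL45 had 15 counts in the shallowest library, and its standard error was the widest of the family.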
